A study of Mus musculus with 18 samples.

Results

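The genes described here encode the membrane proteins of epithelial cell junctions: classical and related cadherins, desmosomal cadherins, claudins and connexins. They were chosen by name, as every probe set of the array whose 1 gene symbol is Cdh, Cldn, Gja, Gjb or Gjc followed by a number alone, or begins with Dsg or Dsc and a number. That gave 103 of 45101 probe sets and 58 of 18193 genes, made up of 21 cadherins, 6 desmosomal cadherins, 20 claudins and 11 connexins. Protocadherins and other genes outside this naming rule were not analysed here as members. Dsg3 was not analysed here either, so the 6 desmosomal cadherins do not include it.

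RNA came from cells sorted from the skin of mice that carried both K5tTA and pTRE-H2B-GFP, from an FvB and a CD1 parent. In these Tet-off animals the keratin 5 promoter drives a GFP-tagged histone in basal epithelial cells, doxycycline in the food (1 g per kg) stops its synthesis, and each later division dilutes the label. All 6 groups carried the transgenes and received doxycycline, from postnatal day (PD) 22 to PD25 in one set of mice and from PD18 to PD21 in the other, so no group was untreated. At each age the 3 fractions were bulge cells with 1 to 2 divisions (divided), bulge cells with 0 divisions (undivided) and non-bulge cells of no stated division class, each from the same 3 mice, which gave 18 Affymetrix arrays. The bulge is the part of the hair follicle that holds its stem cells, and it was separated by surface CD34 and α6-integrin. Non-bulge cells are therefore a mixture of other sorted skin cells, and in such sorted bulk samples fewer cells of a type and less RNA per cell cannot be told apart.

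Cadherins hold neighbouring cells together through calcium-dependent binding of their outer domains, and catenins tie their tails to actin. Desmosomal cadherins (desmogleins and desmocollins) do the same for keratin filaments, and in skin some are used mainly by basal cells and others mainly by cells that move up and differentiate. Claudins seal the space between cells in tight junctions, and connexins form gap junction channels that pass small molecules between cells.

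Values are the deposited signals on a log2(signal + 16) scale, so differences understate the change of dim genes, and the level of one gene cannot be set against that of another. Every array had a trimmed mean signal of 500. Spiked-in hybridisation controls lay at 11.48 to 11.83 on 9 arrays and at 12.92 to 13.5 on the other 9. The low-control arrays were all fractions of PD25 mouse 1 and of PD21 mice 1 and 2, and the high-control arrays were those of PD25 mice 2 and 3 and of PD21 mouse 3, so beside a called difference of a junction gene or partner the values within each set of arrays are given too, unless a mouse block is named. A set then holds 1 or 2 mice of an age. Cd34, the surface marker used in the sort and so no independent check of the labels, averaged 12.06 in divided, 12.39 in undivided and 4.97 in non-bulge cells at PD25. At PD21 it averaged 8.93 in divided, 12.73 in undivided and 4.52 in non-bulge cells, so divided bulge cells of that age lay between the others. The share of all 11569 tested genes called in a comparison is its background, given with the first count of junction genes there. For the fit with the mouse as a fixed block, the share comes from that same fit.

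Of the 58 genes, 22 were tested, since a probe set of theirs exceeded the array median on 3 or more of the 18 arrays: 6 cadherins, all 6 desmosomal cadherins, 6 claudins and 4 connexins. The other 36 genes, Cldn4 among them, had 55 probe sets, of which 45 were never above the array median, 8 were above it on 1 array and 2 on 2 arrays. Their group means lay between 4.07 and 6.48, and the highest value on any single array was 7.12.

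Among the tested genes, the large differences fell on a few members, while Dsc3 and Gja1 passed between no fractions and Cdh1 did so with a block alone. Dsg2, a desmoglein of many simple and stratified epithelia, was about 3-fold lower in undivided bulge cells than in non-bulge cells at both ages. Dsg1a, one of the mouse desmoglein 1 genes, was also lower there at both ages. Divided bulge cells at PD25 had less Cdh13 and more Cldn8 than non-bulge cells. The Cldn8 call was lost without any 1 of the 6 arrays compared. With the mouse as a block, Dsg1a, Cldn1 and Gjb5 were lower there as well. Divided bulge cells also had less of 6 junction genes at PD25 than at PD21. In the tests of whether the age differences of the fractions differ, 0 of 22 genes passed. The map of differences shows all 22 genes in the 9 comparisons of 2 groups.

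**Figure D1:**
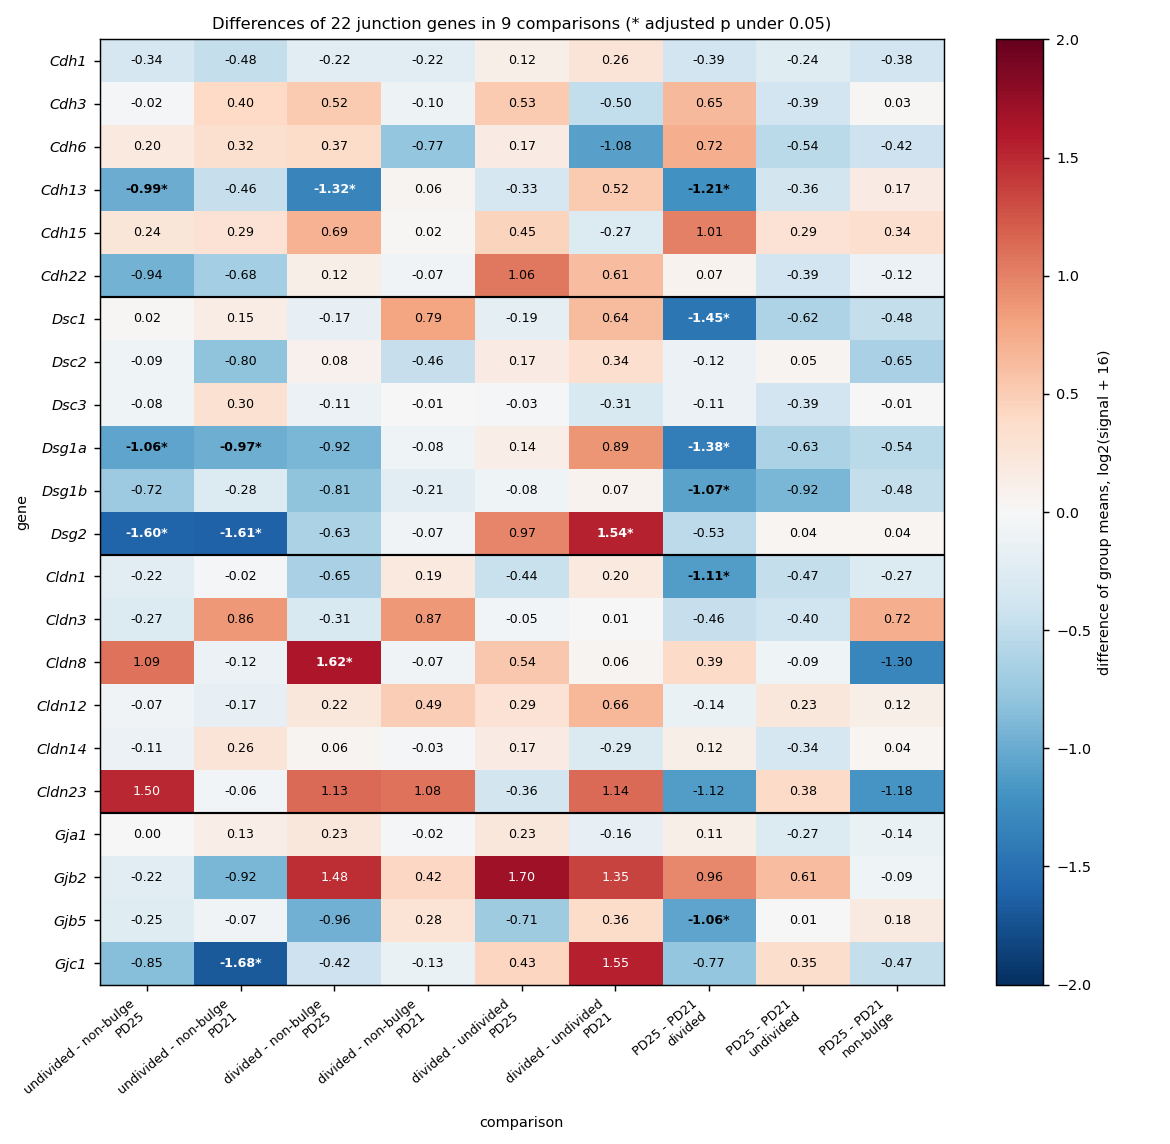
Differences of group means on the log2(signal + 16) scale for the 22 tested junction genes (rows) in 9 comparisons (columns, first-named group minus the second), with 3 mice per group and an asterisk at an adjusted p under 0.05. The asterisks gather on Dsg2 and Dsg1a in undivided bulge minus non-bulge cells and on 6 genes in PD25 minus PD21 divided bulge cells. There Dsg1a differed by -1.38, Dsc1 by -1.45 and Gjb5 by -1.06. The Dsc1 call was lost without any of 11 of the 18 arrays and the Gjb5 call without any of 7.

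The first comparison asks how undivided bulge cells, those that kept the whole label, differ from non-bulge cells. At PD25, 3 of the 22 genes were lower (Dsg2, Dsg1a and Cdh13) and 0 were higher, against 4.83% of all tested genes lower and 5.71% higher (10.5% in either direction). At PD21, 3 were lower (Dsg2, Dsg1a and Gjc1) and 0 higher, against 4.93% lower and 6.12% higher (11% in either direction). In the higher direction, 2 junction genes at PD25 and 0 at PD21 reached an unadjusted p under 0.05 in limma, against 10.7% and 11.2% of all tested genes. The median difference of the 22 genes was -0.17 at PD25 and -0.10 at PD21, beside -0.02 and -0.05 over all tested genes. With the mouse as a block, which compares fractions of the same animal, the same genes passed at each age, and Cdh1 passed in addition at PD21. In that fit 14.7% of all tested genes passed at PD25 and 16.6% at PD21.

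Dsg2 was at 10.35, 10.59 and 9.91 in undivided bulge cells of the 3 PD25 mice, against 12.24, 11.81 and 11.60 in their non-bulge cells. The PD21 levels were 9.86, 10.97 and 9.89 in undivided bulge cells, against 12.08, 11.68 and 11.78 in non-bulge cells. All 3 undivided arrays of an age lay below all 3 non-bulge arrays of that age. The difference was -1.60 ± 0.34 at PD25 (standard error, adjusted p = 0.00183, limma), a 3.03-fold lower level, and -1.61 ± 0.34 at PD21 (adjusted p = 0.00175, limma), a 3.05-fold lower level. In low-control and high-control arrays alone it was -1.89 and -1.46 at PD25, and -1.47 and -1.89 at PD21, where the high-control value no longer passed (adjusted p = 0.057). The difference between the ages was 0.01 ± 0.48 (95% interval -0.98 to 0.99). Dsg2 was measured by 6 probe sets, all lower in undivided bulge cells at both ages. In the fit of 22351 single probe sets, 5 of the 6 passed at both ages, and the sixth did not, with -1.16 at PD25 and -1.20 at PD21.

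**Figure D2:**
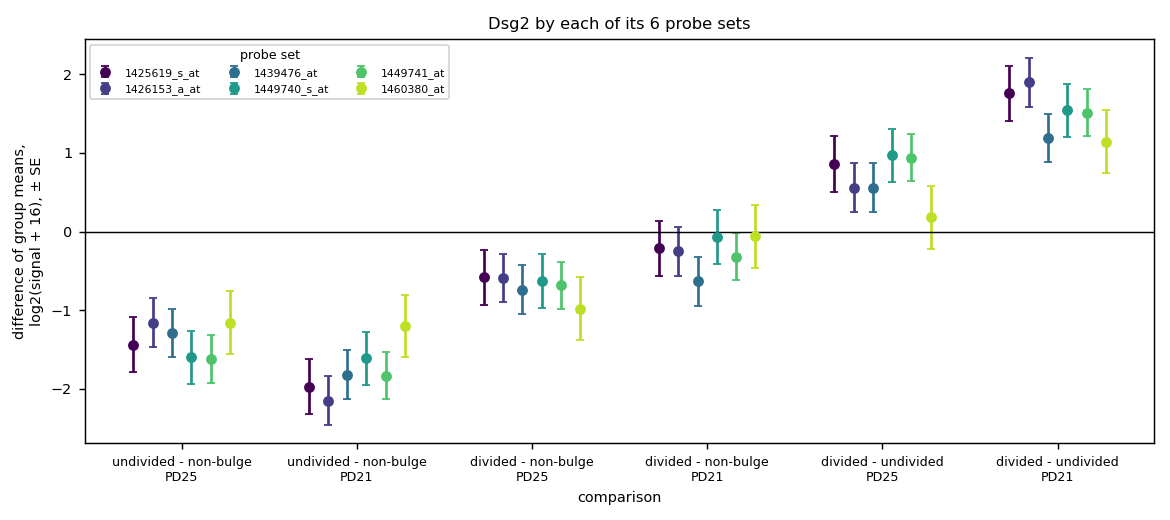
Difference of group means (log2(signal + 16), ± standard error, y axis) for each of the 6 Dsg2 probe sets in 6 comparisons of fractions (x axis), 3 mice per group. All points for undivided minus non-bulge cells lie below 0 (-1.16 to -1.62 at PD25 and -1.20 to -2.15 at PD21), and all points for divided minus undivided cells lie above 0.

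Dsg1a was at 11.71, 11.53 and 11 in undivided bulge cells at PD25, against 12.93, 12.20 and 12.29 in non-bulge cells. PD21 mice had levels of 12.01, 12.58 and 11.55 in undivided bulge cells, against 13.29, 13.07 and 12.68 in non-bulge cells. The groups did not overlap at either age. Dsg1a was lower by -1.06 ± 0.29 at PD25 (adjusted p = 0.0187, limma) and by -0.97 ± 0.29 at PD21 (adjusted p = 0.0339, limma). In low-control and high-control arrays alone the difference was -1.22 and -0.98 at PD25 and -0.88 and -1.13 at PD21, where the high-control value did not pass. The PD25 call was lost without non-bulge mouse 1 (-0.83, adjusted p = 0.129) or undivided mouse 3 (-0.85, adjusted p = 0.112). The PD21 call was lost without non-bulge mouse 1 or 2 or without undivided mouse 1 or 3, with differences from -0.95 to -0.72. With the mouse as a block the difference was -1.06 ± 0.18 at PD25 and -0.97 ± 0.18 at PD21 (adjusted p = 0.000195 and 0.000543, limma). Dsg1a and Dsg1b are near-identical copies, and each had 1 probe set, so signal from one gene on the other's probes was not tested. Dsg1b itself differed by -0.72 at PD25 and by -0.28 at PD21, neither of which passed.

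Cdh13 encodes T-cadherin, an unusual cadherin held in the membrane by a lipid anchor, with no tail for catenins. At PD25 it was at 10.33, 10.14 and 9.93 in undivided bulge cells, against 10.89, 11.29 and 11.20 in non-bulge cells, with no overlap. The difference was -0.99 ± 0.29 (adjusted p = 0.0257, limma), and in low-control and high-control arrays alone it was -0.56 (adjusted p = 0.592) and -1.21 (adjusted p = 0.0255). It did not pass without non-bulge mouse 2 or 3 or without undivided mouse 2 or 3 (differences from -0.99 to -0.89). With the mouse as a block it was -0.99 ± 0.28 (adjusted p = 0.017, limma). The other 2 probe sets of Cdh13 gave -0.75 and -0.64 at PD25 and did not pass. At PD21 the undivided cells overlapped the non-bulge cells, at 9.90, 10.36 and 11.22 against 10.73, 11.19 and 10.94, and the difference was -0.46.

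Gjc1 encodes connexin 45. Levels at PD21 were 5.72, 6.12 and 6.88 in undivided bulge cells, against 8.47, 6.98 and 8.31 in non-bulge cells, a dim signal with no overlap. The difference was -1.68 ± 0.53 (adjusted p = 0.0399, limma), and in low-control and high-control arrays alone it was -1.80 (adjusted p = 0.153) and -1.43 (adjusted p = 0.444). Its call was lost without undivided mouse 1 or 2 or without non-bulge mouse 1 or 3 (differences from -1.62 to -1.41). With the mouse as a block the difference was -1.68 ± 0.50 (adjusted p = 0.0235, limma). At PD25 the groups overlapped, with 6.05, 7.41 and 6.32 in undivided and 7.01, 7.50 and 7.84 in non-bulge cells, and the difference of -0.85 did not pass.

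Some markers differed in the same comparison. Of 12 bulge markers, 10 were higher in undivided than in non-bulge cells at each age. Of 12 suprabasal epidermal markers, 3 were lower at PD25 (Tgm3, Krt1 and Calm4), 1 at PD21 (Tgm3) and 0 were higher. By group mean, Krt10 and Krtdap were also lower at both ages, while Lor, Sbsn, Cdsn, Dmkn and Tgm1 were higher at both. None of these passed. The summed suprabasal signal was 53300 to 68000 in undivided and 77800 to 136000 in non-bulge cells at PD25, and 59600 to 124000 in undivided and 61700 to 121000 in non-bulge cells at PD21. Of 6 basal epidermal markers, 2 were lower at each age, with Ly6d at -3.40 in PD25 mice and -1.95 in PD21 mice and Gata3 at -1.52 and -1.54. Krt5, Krt14, Trp63 and Col17a1 did not pass. At PD25 they averaged 14.66, 14.09, 13.79 and 14.17 in undivided and 14.74, 14.56, 13.82 and 14.12 in non-bulge cells. At PD21 the means were 14.91, 14.31, 14.23 and 14.58 in undivided and 14.63, 14.49, 13.94 and 14.15 in non-bulge cells. Sebaceous gland markers passed in 0 of 5 at PD25, while 3 of 5 were lower at PD21 (Pparg, Plin2 and Scd1), where their summed signal was 6670 to 10300 in undivided and 17400 to 23200 in non-bulge cells.

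Some markers of other lists were higher in undivided cells. Of 5 tested fibroblast and papilla markers, 2 were higher in undivided than in non-bulge cells at PD25 (Col1a1 by 2.34 and Col6a1 by 2.64). At PD21, 3 were higher (Col1a1 by 4.09, Col6a1 by 3.65 and Sparc by 2.38). Col1a2 and Col3a1 did not pass. They averaged 5.63 and 4.85 in undivided cells at PD21, below the 6.54 and 5.23 of non-bulge cells. At PD25 they averaged 6.58 and 6.63, above the 6.15 and 5.83 of non-bulge cells. Pdgfra and Lum were never above the array median. The summed signal of this list was 9330 to 11500 in undivided and 4270 to 8440 in non-bulge cells at PD25, and 16300 to 30200 in undivided and 3570 to 5230 in non-bulge cells at PD21. Of 4 tested melanocyte markers, Mitf was higher at both ages and Dct at PD25, while Tyr, Mlana and Kit were never above the array median. Krt8, the 1 tested marker of Merkel cells and nerve, was higher by 2.89 at PD25 and by 3.01 at PD21. Gata3, which also stands in the hair shaft and inner root sheath list, was the only marker there to pass, and it was lower. Of 7 immune markers 0 passed, and of 11 endothelial markers 2 were tested, with 0 passing, and 5 were never above the array median. The part of any of these cell types in the lower Dsg2, Dsg1a, Cdh13 and Gjc1 signals was not tested.

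**Figure D3:**
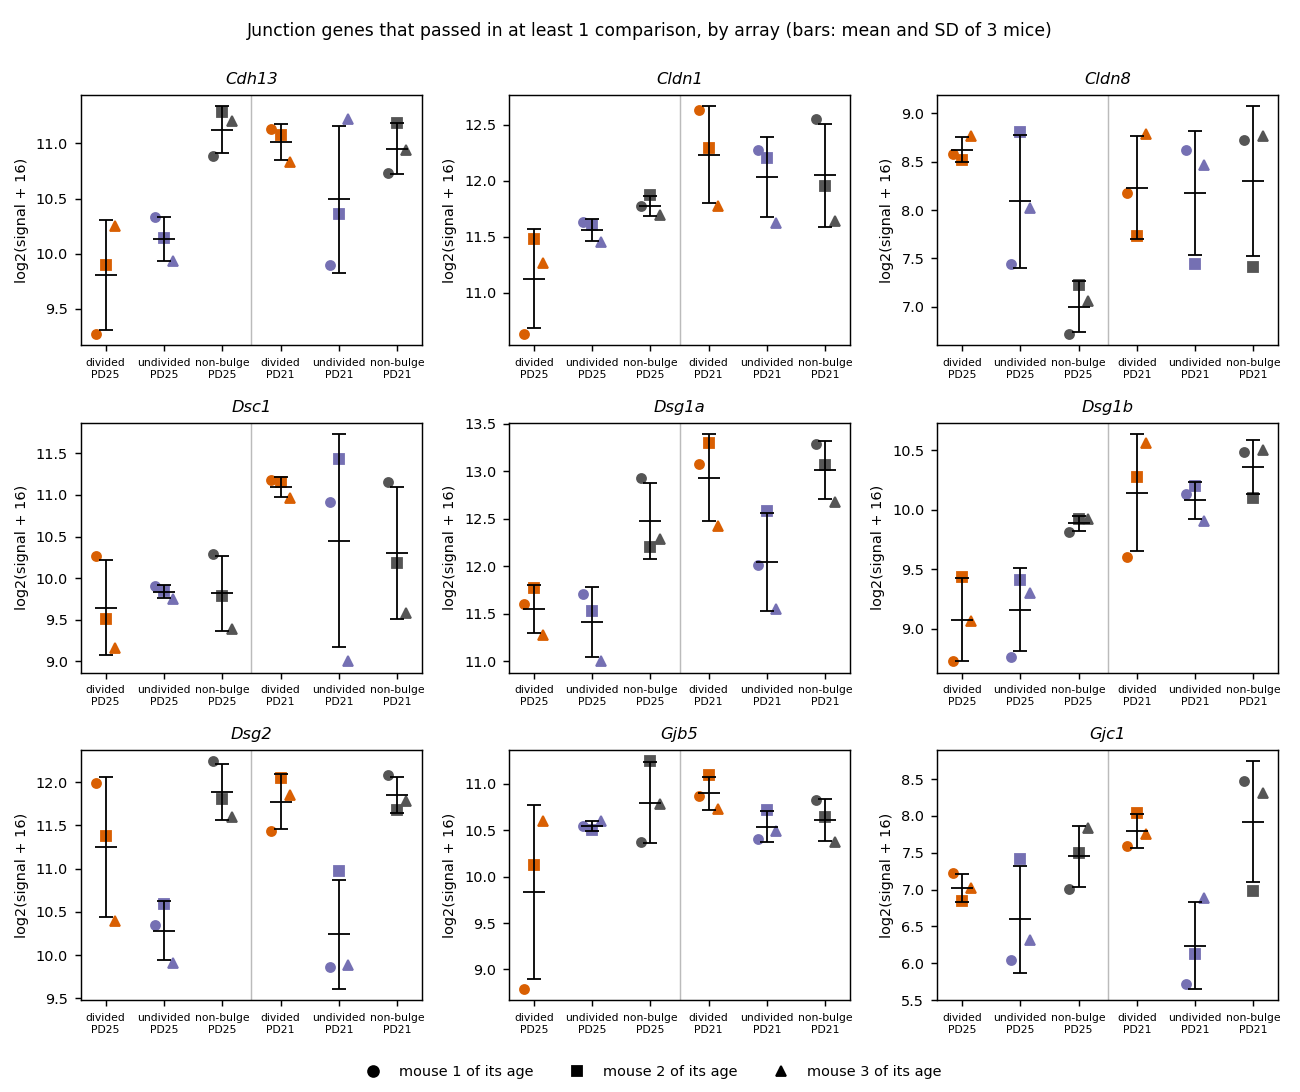
Level on each array (log2(signal + 16), y axis) of the 9 junction genes that passed in at least 1 comparison, by fraction and age (x axis), with the mean and SD of 3 mice as bars and a marker shape for each mouse. The lowest Dsg2 value of each age is in undivided bulge cells (9.91 at PD25 and 9.86 at PD21), and divided bulge cells at PD25 hold the lowest Cldn1 value (10.63) and the lowest Gjb5 value (8.79).

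The next comparison sets divided bulge cells against non-bulge cells. At PD25, 1 junction gene was higher (Cldn8) and 1 was lower (Cdh13), against 5.62% of all tested genes higher and 3.25% lower (8.87% in either direction). At PD21, 0 of 22 passed in limma, and 0 reached an unadjusted p under 0.05, against 0.182% and 4.21% of all tested genes. The median difference of the 22 genes was -0.03 at both ages, beside -0.02 at PD25 and 0.03 at PD21 over all tested genes.

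Cdh13 was at 9.27, 9.90 and 10.25 in divided bulge cells at PD25, all below the non-bulge range of 10.89 to 11.29. It was lower by -1.32 ± 0.29 (adjusted p = 0.00347, limma), a call that held in each set of control levels alone (-1.62 in low-control and -1.17 in high-control arrays) and without any 1 array. All 3 probe sets of Cdh13 passed there in the fit of single probe sets (-1.64, -1.32 and -1.59). At PD21 the divided cells were at 11.13, 11.08 and 10.83, inside the spread of the non-bulge cells, and the difference was 0.06. The change of this difference between the ages was -1.38 ± 0.41 and did not pass (adjusted p = 0.094, limma).

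Cldn8, a claudin best known from kidney tubules, was at 8.58, 8.52 and 8.77 in divided bulge cells at PD25, against 6.72, 7.23 and 7.06 in non-bulge cells. The groups were far apart, and the difference was 1.62 ± 0.48 (adjusted p = 0.0347, limma). At PD21 Cldn8 was at 8.18, 7.73 and 8.79 in divided bulge cells, against 8.72, 7.41 and 8.77 in non-bulge cells, a difference of -0.07. Across the 6 groups the non-bulge cells at PD25 were the low ones, and undivided bulge cells were at 7.44, 8.81 and 8.02 at that age and at 8.62, 7.44 and 8.47 at PD21. In low-control and high-control arrays alone the PD25 difference was 1.86 and 1.5, and neither passed. The call was also lost without any 1 of the 6 arrays compared (1.48 to 1.73, adjusted p from 0.0578 to 0.12). The change of the difference between the ages was 1.69 ± 0.68 (adjusted p = 0.274, limma).

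With the mouse as a block, which compares fractions of the same animal, 5 of the 22 genes passed at PD25, 1 higher and 4 lower, against 7.58% of all tested genes higher and 4.76% lower in that fit (12.3% in either direction). Dsg1a (-0.92, adjusted p = 0.00106), Cldn1 (-0.65, adjusted p = 0.0196) and Gjb5 (-0.96, adjusted p = 0.0205) were then lower in divided bulge than in non-bulge cells, in addition to Cdh13 and Cldn8. Without the block their adjusted p in limma were above the threshold of 0.05. Of the 12 bulge markers, 10 were higher in divided than in non-bulge cells at PD25 and 5 at PD21. At PD25, 2 of 6 basal markers (Ly6d by -2.37 and Gata3 by -1.37) and 2 of 12 suprabasal markers (Tgm3 by -2.70 and Calm4 by -1.34) were lower in divided cells. There 4 of 5 fibroblast and papilla markers were higher (Col1a1 by 3.21, Col6a1 by 2.52, Col3a1 by 2.32 and Col1a2 by 2.22), with a summed signal of 7150 to 17100 in divided and 4270 to 8440 in non-bulge cells. Mitf (2.47) and Dct (2.11), 2 of 4 melanocyte markers, were higher as well. At PD21, Col1a1 was higher (3.55), and no basal, suprabasal, sebaceous or melanocyte marker passed. The part of these cells in the Cdh13, Dsg1a, Cldn1, Gjb5 and Cldn8 differences was not tested.

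The third comparison sets divided against undivided bulge cells, as the labels name them. At PD21 these fractions also differed in Cd34, with means of 8.93 in divided, 12.73 in undivided and 4.52 in non-bulge cells. Division and the lower bulge marker level of divided cells cannot be told apart at that age. At PD21, 1 junction gene was higher in divided cells (Dsg2) and 0 were lower, against 3.91% of all tested genes higher and 4.37% lower (8.28% in either direction). In the lower direction 0 junction genes reached an unadjusted p under 0.05, against 9.14% of all tested genes. At PD25, 0 of 22 genes and 0% of all tested genes passed in limma, while 3 junction genes reached an unadjusted p under 0.05, against 5.49% of all tested genes. The median of the 22 differences was 0.17 at PD25 and 0.30 at PD21, beside 0.02 and 0.07 over all tested genes.

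At PD21 Dsg2 was at 11.43, 12.05 and 11.85 in divided bulge cells, against 9.86, 10.97 and 9.89 in undivided cells, and the groups did not overlap. The difference was 1.54 ± 0.34 (adjusted p = 0.00365, limma), a 2.91-fold higher level, with 1.33 in low-control arrays and 1.97 in high-control arrays alone (adjusted p = 0.0887 in the high-control arrays). It rests on the same undivided arrays as the lower Dsg2 against non-bulge cells described above. At PD25 Dsg2 was at 11.99, 11.38 and 10.39 in divided cells, against 10.35, 10.59 and 9.91 in undivided cells, higher within each of the 3 mice but overlapping between groups. That difference of 0.97 did not pass (adjusted p = 0.604), and the change between the ages was -0.57 ± 0.48 (adjusted p = 0.73, limma; 95% interval -1.55 to 0.41).

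With the mouse as a block, 4 of 22 junction genes were higher and 0 lower in divided cells at PD21, against 6.54% of all tested genes higher and 6.71% lower in that fit (13.3% in either direction). They were Dsg2, Dsg1a (0.89, adjusted p = 0.0017), Gjc1 (1.55, adjusted p = 0.043) and Cldn12 (0.66, adjusted p = 0.00541). Cldn12, a claudin without the usual scaffold-binding tail, was at 12.83, 12.85 and 12.15 in divided cells, against 12.23, 12.12 and 11.49 in undivided cells. Each mouse's divided cells lay above its own undivided cells by a similar amount, while the mice differed among themselves. At PD21, 9 of 12 bulge markers were lower in divided than in undivided cells, and their summed signal was 42000 to 72500 in divided and 79200 to 158000 in undivided cells. Of the basal markers 2 of 6 were higher (Ly6d by 2.04 and Gata3 by 1.37), of the suprabasal markers 1 of 12 (Tgm3 by 3.21), and of the sebaceous gland markers 2 of 5 (Pparg by 2.55 and Plin2 by 0.94). Of the 5 fibroblast and papilla markers, Col6a1 (-3.15) and Sparc (-1.64) were lower and Col3a1 (2.77) was higher, and Mitf (-2.08) was the 1 lower melanocyte marker. The part of any of these in the Dsg2, Dsg1a, Gjc1 and Cldn12 differences was not tested.

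The ages were compared within each fraction, between different mice. In divided bulge cells, 6 of 22 junction genes were lower at PD25 (Cdh13, Cldn1, Dsc1, Dsg1a, Dsg1b and Gjb5) and 0 were higher, against 3.47% of all tested genes lower and 4.37% higher (7.84% in either direction). In the higher direction 0 of the 22 reached an unadjusted p under 0.05 in limma, against 9.67% of all tested genes. In undivided bulge cells 0 passed in limma and 2, both lower, reached an unadjusted p under 0.05, against 0.0951% and 8.03% of all tested genes. In non-bulge cells 0 passed and 1, lower, reached an unadjusted p under 0.05, against 0.0432% and 4.42%. The median over the 22 genes was -0.26 in divided, -0.31 in undivided and -0.13 in non-bulge cells, beside 0, 0.02 and 0.02 over all tested genes. High-control arrays alone, with 2 PD25 mice and 1 PD21 mouse, called 0 of the 6.

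Of the desmosomal cadherins, 3 were lower at PD25, all of the kinds used mainly by differentiating epidermal cells. Dsg1a was at 11.60, 11.77 and 11.28 in divided cells at PD25, against 13.08, 13.30 and 12.42 at PD21, a difference of -1.38 ± 0.29 (adjusted p = 0.00358, limma). Its groups did not overlap, and the call held without any 1 array. Dsg1b was at 8.73, 9.43 and 9.06 at PD25, against 9.60, 10.27 and 10.56 at PD21, lower by -1.07 ± 0.28 (adjusted p = 0.018, limma). Dsc1, desmocollin 1, was at 10.27, 9.51 and 9.16 at PD25, against 11.18, 11.15 and 10.96 at PD21, lower by -1.45 ± 0.45 (adjusted p = 0.0474, limma). Both were without overlap, but Dsg1b lost its call without PD25 mouse 1 or 3 or PD21 mouse 2 or 3 (-1.06 to -0.86), and Dsc1 lost it without any of 11 of the 18 arrays and under 7 of 13 other settings. In low-control and high-control arrays alone the differences were -1.59 and -0.90 for Dsg1a, -1.20 and -1.31 for Dsg1b, and -0.89 and -1.63 for Dsc1. The other fractions also had lower means of these genes at PD25, without passing. Undivided cells averaged 11.41 at PD25 and 12.05 at PD21 for Dsg1a, 9.16 and 10.08 for Dsg1b, and 9.84 and 10.45 for Dsc1. Non-bulge cells averaged 12.47 and 13.01 for Dsg1a, 9.88 and 10.36 for Dsg1b, and 9.82 and 10.30 for Dsc1.

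Cldn1, the claudin whose loss in mice opens the skin's water barrier, was at 10.63, 11.48 and 11.26 in divided cells at PD25, against 12.63, 12.29 and 11.77 at PD21. The groups did not overlap, and the difference was -1.11 ± 0.27 (adjusted p = 0.0111, limma), a 2.16-fold lower level. Its second probe set gave -1.14 and passed as well. Cldn1 was at 11.63, 11.60 and 11.45 in undivided cells at PD25, against 12.27, 12.20 and 11.62 at PD21, a difference of -0.47 that did not pass. Non-bulge cells were at 11.77, 11.87 and 11.69 at PD25, against 12.55, 11.95 and 11.64 at PD21. In divided cells the difference was -1.83 in low-control and -0.40 in high-control arrays alone (adjusted p = 0.803 in the high-control arrays), and the call was lost without mouse 1 of PD25 (-0.87) or of PD21 (-0.91).

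Cdh13, already described against non-bulge cells, was lower at PD25 by -1.21 ± 0.29 in divided cells (adjusted p = 0.00922, limma), at 9.27 to 10.25 against 10.83 to 11.13. The difference was -1.84 in low-control and -0.75 in high-control arrays alone, and it did not pass without PD25 mouse 1 (-0.94, adjusted p = 0.0726). Gjb5 encodes a connexin of skin, and was at 8.79, 10.12 and 10.60 at PD25, against 10.87, 11.09 and 10.73 at PD21. PD25 mouse 1 stood below the others, and the difference of -1.06 ± 0.32 (adjusted p = 0.0422, limma) was -0.54 without it (adjusted p = 0.311). In low-control and high-control arrays alone it was -2.19 and -0.37. The call was also lost when any of 6 other arrays was left out.

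That divided sample of PD25 mouse 1 also held the highest Gja1 value of the series (15.06) and the highest Gjb2 value (10.59), and its Gapdh 3′ to 5′ signal ratio was the highest of the 18 arrays (11.6, range 3.1 to 11.6). Of the 12 bulge markers, 10 were higher in divided cells at PD25 than at PD21, and of 12 suprabasal markers 2 were lower (Tgm3 by -1.94 and Calm4 by -1.63). The summed suprabasal signal was 53000 to 106000 at PD25 and 77800 to 156000 at PD21. Of 6 basal markers 2 were lower (Ly6d by -2.30, adjusted p = 1.31e-05, and Gata3 by -1.40, adjusted p = 0.0037, limma), and of 5 fibroblast and papilla markers 1 was higher (Col6a1 by 2.09). The part of these markers' cells in the 6 lower genes was not tested. Whether the age differences of the fractions differ was tested directly, and 0 of 22 genes passed in any of the 3 tests with limma. At an unadjusted p under 0.05 they gave 0 genes for undivided minus non-bulge, 4 for divided minus non-bulge and 2 for divided minus undivided cells, against 3.86%, 11.8% and 12.8% of all tested genes. At an adjusted p under 0.05 these tests called 0%, 1.63% and 1.18% of all tested genes.

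Of the 6 genes lower in divided cells at PD25, Cldn1 and Gjb5 are shown here with the sequence just before their start, since they stand in the RefSeq promoter table (GRCm38.p6) used. Each run is 250 bases, 5′ to 3′ on the gene's strand, and ends at the base before the RefSeq start. It covers chr16:26371840-26372089 (minus strand) for Cldn1 and chr4:127358165-127358414 (minus strand) for Gjb5. Capitals mark matches to any of the motifs given after the sequences.
Cldn1: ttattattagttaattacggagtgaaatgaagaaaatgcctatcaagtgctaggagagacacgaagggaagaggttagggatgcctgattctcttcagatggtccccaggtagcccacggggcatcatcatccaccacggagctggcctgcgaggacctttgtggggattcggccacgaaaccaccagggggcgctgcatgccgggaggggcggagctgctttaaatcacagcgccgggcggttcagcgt
Gjb5: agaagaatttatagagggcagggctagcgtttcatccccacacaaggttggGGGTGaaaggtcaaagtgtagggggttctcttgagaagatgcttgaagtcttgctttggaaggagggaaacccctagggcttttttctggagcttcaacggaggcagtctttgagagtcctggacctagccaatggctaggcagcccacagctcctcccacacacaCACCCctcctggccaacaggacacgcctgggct

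The letters searched on both strands were AACCGGTT (bound by grainyhead-like factors), CACCTG (the E-box of Snail and Zeb repressors), TGANTCA (AP-1) and CACCC (bound by Krüppel-like factors). Gjb5 held 2 CACCC matches, one on the other strand 199 to 195 bases before the start and one 33 to 29 bases before it. Cldn1 held 0 matches to any of the 4. Among 32841 promoter windows of this length, 52.0% held CACCC, 17.2% CACCTG, 6.75% TGANTCA and 0.116% AACCGGTT. A match of letters describes the window and does not show a bound site.

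The textbook junction genes of skin that passed in no comparison are given next. Cdh1, E-cadherin, was at 12.97, 12.42 and 12.51 in divided, 12.73, 12.43 and 12.37 in undivided and 13.37, 12.38 and 12.82 in non-bulge cells at PD25. The PD21 levels were 13.13, 13.25 and 12.68 in divided, 12.85, 12.94 and 12.48 in undivided and 13.35, 13.48 and 12.89 in non-bulge cells. The groups overlapped at both ages, and the differences between groups lay between -0.48 and 0.26. Each PD21 mouse had less Cdh1 in its undivided than in its non-bulge cells, and with the mouse as a block that difference passed (-0.48 ± 0.14, adjusted p = 0.021, against 0.322 without the block), as did 16.6% of all tested genes with the block.

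Cdh3, P-cadherin, a cadherin of basal and hair follicle cells, was at 8.88, 8.33 and 9.37 in divided, 7.66, 8.32 and 8.98 in undivided and 8.21, 8.42 and 8.39 in non-bulge cells at PD25. PD21 mice had levels of 7.55, 8.26 and 8.81 in divided, 7.98, 8.29 and 9.86 in undivided and 8.62, 8.31 and 7.99 in non-bulge cells. Every group overlapped the others, and the interval of undivided minus non-bulge cells was -1.01 to 0.98 at PD25 and -0.59 to 1.40 at PD21. Dsc3, the desmocollin of basal layers, was at 13.88, 13.57 and 13.67 in divided, 14.21, 13.70 and 13.29 in undivided and 14.31, 13.65 and 13.48 in non-bulge cells at PD25. Levels at PD21 were 14.01, 14.19 and 13.24 in divided, 14.51, 14.39 and 13.48 in undivided and 13.91, 14.14 and 13.41 in non-bulge cells. Its fractions overlapped at both ages, with an interval for undivided minus non-bulge cells of -0.81 to 0.65 at PD25 and -0.43 to 1.03 at PD21.

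Dsc2, a widely expressed desmocollin, was at 9.14, 8.48 and 8.32 in divided, 7.94, 8.99 and 8.49 in undivided and 8.37, 8.49 and 8.85 in non-bulge cells at PD25. The PD21 levels were 8.77, 8.11 and 9.42 in divided, 9.47, 6.90 and 8.91 in undivided and 9.33, 9.28 and 9.06 in non-bulge cells. Undivided mouse 2 at PD21 was the low array, and the fractions overlapped. Its differences between groups lay between -0.80 and 0.34.

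Gja1, connexin 43, the common gap junction protein of epidermis, was at 15.06, 13.65 and 13.69 in divided, 14.44, 13.67 and 13.59 in undivided and 14.35, 13.68 and 13.69 in non-bulge cells at PD25. PD21 mice had levels of 14.32, 14.09 and 13.64 in divided, 14.49, 14.35 and 13.69 in undivided and 14.29, 14.21 and 13.62 in non-bulge cells. Outside the divided sample of PD25 mouse 1, the low-control arrays held 14.09 to 14.49 and the high-control arrays 13.59 to 13.69, whatever the fraction. The undivided minus non-bulge difference was 0.00 at PD25 (95% interval -0.80 to 0.79) and 0.13 at PD21 (95% interval -0.66 to 0.93). Gjb2, connexin 26, was at 10.59, 6.94 and 7.94 in divided, 7.15, 5.90 and 7.33 in undivided and 6.85, 6.77 and 7.42 in non-bulge cells at PD25. Levels at PD21 were 7.06, 7.64 and 7.89 in divided, 5.94, 7.07 and 5.54 in undivided and 7.96, 6.40 and 6.96 in non-bulge cells. The groups overlapped even with that 1 high array, and its largest difference, divided minus undivided cells at PD25, was 1.70 ± 0.71 (adjusted p = 0.786, limma).

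**Figure D4:**
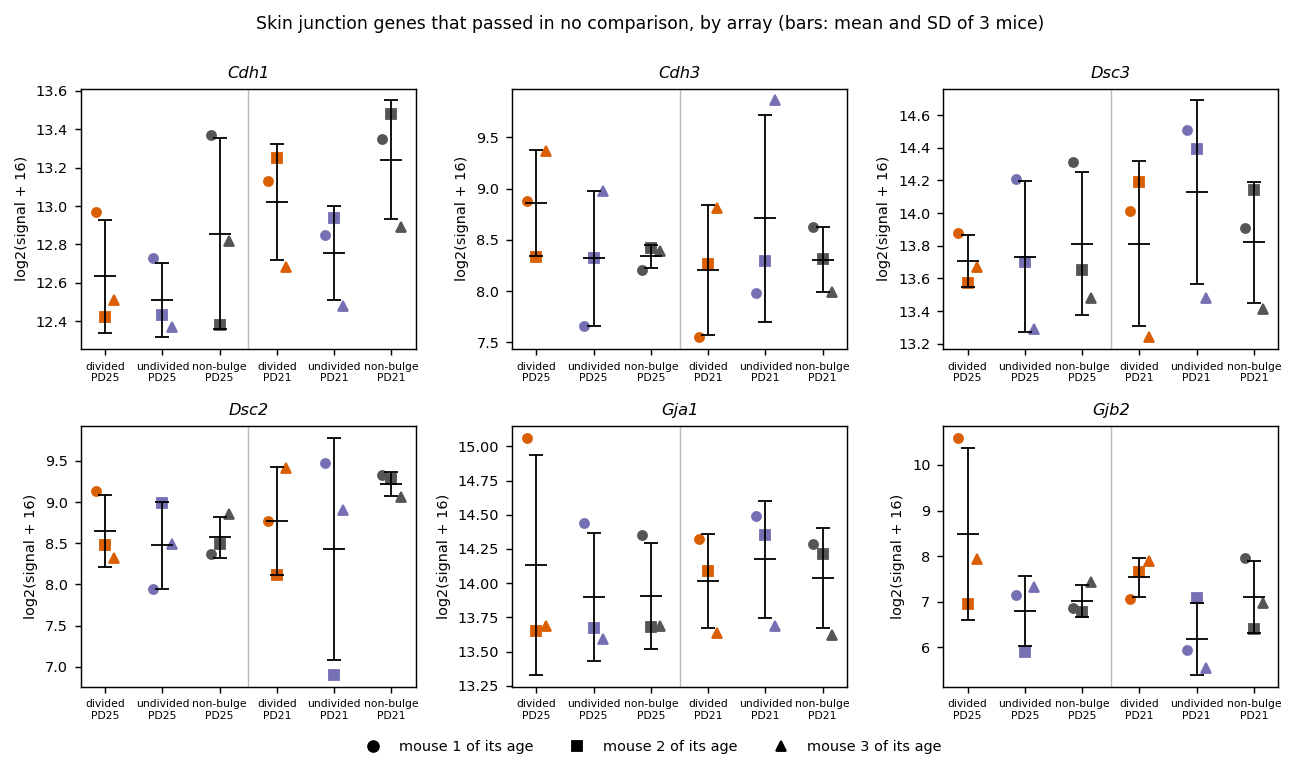
Level on each array (log2(signal + 16), y axis) of Cdh1, Cdh3, Dsc2, Dsc3, Gja1 and Gjb2, by fraction and age (x axis), with the mean and SD of 3 mice as bars and a marker shape for each mouse. The fractions overlap in these genes, and 1 divided sample at PD25 stands alone in Gjb2 (10.59) and Gja1 (15.06).

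The remaining 7 tested genes, Cdh6, Cdh15, Cdh22, Cldn3, Cldn12, Cldn14 and Cldn23, passed in no comparison without the block. Cldn12 had group means of 11.95 to 12.61. The other 6 were dim, with group means between 5.22 and 8.36. Cldn23 had the widest differences of these, with 1.5 for undivided minus non-bulge cells at PD25, but its PD21 non-bulge arrays alone ran from 6.22 to 8.68.

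The proteins that work with these membrane proteins were described from lists of 5 kinds, 60 tested genes in all that are not members. In undivided minus non-bulge cells, 17 passed at PD25 (5 higher, 12 lower) and 11 at PD21 (4 higher, 7 lower), against 10.5% and 11% of all tested genes. In divided minus non-bulge cells 13 passed at PD25 (4 higher, 9 lower) and 0 at PD21, against 8.87% and 0.182%. In divided minus undivided cells 0 passed at PD25 and 11 at PD21 (7 higher, 4 lower), against 0% and 8.28%. Between the ages 13 passed in divided cells (4 higher and 9 lower at PD25), against 7.84%, and 0 in each other fraction. The age difference of divided minus non-bulge cells passed for 3, against 1.63%, and those of the other pairs for 0.

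With the mouse as a block, 22 partners passed in undivided minus non-bulge cells at PD25 and 20 at PD21, against 14.7% and 16.6% of all tested genes in that fit. Divided minus non-bulge cells then gave 19 at PD25 and 1 at PD21, against 12.3% and 0.424%, and divided minus undivided cells 20 at PD21, against 13.3%. The age difference passed for 9 partners in divided minus non-bulge cells, against 3.9%, and for 4 in divided minus undivided cells, against 4.37%.

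Among 19 adherens junction partners, 3 were higher and 0 lower in undivided than in non-bulge cells at each age. Ctnnd2, a catenin that binds cadherin tails, was at 10.71, 10.89 and 9.75 in undivided cells at PD25, against 6.54, 7.38 and 6.97 in non-bulge cells. The PD21 levels were 10.74, 10.27 and 11.07 in undivided cells, against 5.71, 5.43 and 6.51 in non-bulge cells. Undivided cells were thus far above non-bulge cells on every array, with differences of 3.49 ± 0.54 at PD25 and 4.81 ± 0.54 at PD21 (adjusted p = 6.46e-05 and 1.02e-06, limma). Each set of arrays, low-control and then high-control, gave 4.17 and 3.15 at PD25 and 4.93 and 4.56 at PD21, and each value passed. Its second probe set gave 1.63 and 1.48 in the same direction and did not pass. Afdn, afadin, which ties nectins to actin, was at 13.84, 13.39 and 13.05 in undivided cells at PD25, against 11.86, 11.16 and 11.39 in non-bulge cells. It was higher by 1.96 ± 0.32 at PD25 and by 2.22 ± 0.32 at PD21 (adjusted p = 0.000142 and 3.38e-05, limma), while a second Afdn probe set read -0.50 and -1.15 and did not pass. Low-control and high-control arrays alone gave 1.98 and 1.94 for Afdn at PD25 and 2.49 and 1.67 at PD21, and each passed.

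The other adherens junction genes that passed were Ctnnal1 (1.02 at PD25) and Nectin1 (1.11 at PD21), and no other probe set of either gene passed. Neither passed in low-control or high-control arrays alone, which gave 1.27 and 0.90 for Ctnnal1 and 1.22 and 0.90 for Nectin1. The Ctnnal1 call was lost without non-bulge mouse 1 or 2 or undivided mouse 1 (0.80 to 0.97), and the Nectin1 call without non-bulge mouse 1 or 2 or undivided mouse 1 or 3 (0.75 to 1.21).

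In divided cells at PD21, Ctnnd2 and Afdn were lower than in undivided cells, by -2.39 ± 0.54 and -1.58 ± 0.32 (adjusted p = 0.00502 and 0.00222, limma). In low-control arrays alone both passed (-2.88 and -1.83), and in the high-control mouse alone neither did (-1.42 and -1.08, adjusted p = 0.362 and 0.177). Without divided mouse 3 the Ctnnd2 difference was -3.07. Both were higher in divided cells at PD25 than at PD21, by 1.79 and 1.33. For Ctnnd2 neither set of arrays alone passed (1.21 and 1.07), and the call was lost without any of 7 of the 18 arrays (1.43 to 1.79), while it was 2.47 without PD21 divided mouse 3 and 2.42 without PD25 divided mouse 1. Afdn gave 1.89 in low-control arrays and 1.15 in high-control arrays alone (adjusted p = 0.0873 in the high-control arrays), and lost its call without PD21 divided mouse 2 or PD25 divided mouse 1 (1.02 to 1.24).

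Of 8 desmosomal plaque genes, 2 were lower in undivided than in non-bulge cells at PD25 and 1 at PD21, and 0 were higher. Pkp4, a plakophilin-related armadillo protein, was lower by -1.28 ± 0.33 at PD25 and by -1.20 ± 0.33 at PD21 (adjusted p = 0.0113 and 0.0179, limma). In low-control arrays alone it passed at both ages (-1.75 and -1.08), and in high-control arrays alone at neither (-1.05 and -1.46). The PD25 call was lost without non-bulge mouse 1 or undivided mouse 3 (-1.09 to -0.91), and the PD21 call without non-bulge mouse 1 or 2 or undivided mouse 3 (-1.15 to -0.92). Ppl, periplakin, which joins desmosomes to keratin in differentiating cells, was at 10.68, 10.73 and 10.38 in undivided cells at PD25, against 11.76, 11.54 and 11.59 in non-bulge cells. Its groups did not overlap (-1.04 ± 0.22, adjusted p = 0.00238, limma), and low-control and high-control arrays alone gave -1.09 and -1.02, neither of which passed (adjusted p = 0.066 and 0.0602).

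Both plaque genes were lower in divided cells at PD25 than in non-bulge cells of that age, Pkp4 by -1.46 and Ppl by -1.08. Pkp4 gave -2.40 in low-control and -0.99 in high-control arrays alone there, and Ppl -0.93 and -1.16, of which -0.99 and -0.93 did not pass. The Pkp4 call was lost without non-bulge mouse 1 (-1.08). Both were also lower than in divided cells at PD21, Pkp4 by -1.40 and Ppl by -1.16. Low-control arrays alone passed for both (-1.75 and -1.03), high-control arrays alone for neither (-0.98 and -1.0), and Pkp4 lost its call without PD21 divided mouse 1 or PD25 divided mouse 3 (-1.26 to -1.14).

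Of 20 tight junction partners, 2 were higher and 6 lower in undivided than in non-bulge cells at PD25, and 1 was higher and 4 lower at PD21. Ocln, occludin, a 4-span tight junction protein, was at 7.54, 7.99 and 7.99 in undivided cells at PD25, against 9.69, 9.96 and 10.02 in non-bulge cells. PD21 mice had levels of 7.87, 8.48 and 6.69 in undivided cells, against 10.18, 8.74 and 9.83 in non-bulge cells. The arrays did not overlap, and Ocln was lower by -2.05 ± 0.41 at PD25 and by -1.91 ± 0.41 at PD21 (adjusted p = 0.00116 and 0.00239, limma). Low-control arrays alone gave -2.16 and -1.29, which did not pass, and high-control arrays -2.0 and -3.14, which did. Marveld2, tricellulin, which seals the points where 3 cells meet, was at 8.31, 8.28 and 8.06 in undivided cells at PD25, against 9.98, 9.90 and 9.68 in non-bulge cells. It too was separate on every array, lower by -1.64 ± 0.29 at PD25 and by -1.53 ± 0.29 at PD21 (adjusted p = 0.000334 and 0.000733, limma). In low-control and high-control arrays alone it was -1.67 and -1.62 at PD25 and -1.32 and -1.94 at PD21, of which the PD25 high-control value alone passed.

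Cxadr, an adhesion receptor of the junction, was lower in undivided than in non-bulge cells by -0.99 at PD25 and by -0.91 at PD21. It gave -1.02 and -0.98 in low-control and high-control arrays alone at PD25, and -0.87 and -1.01 at PD21, where the larger value of each age did not pass. Marveld3, of the same family as occludin, was lower by -2.0 at PD21 and passed in each set alone (-1.80 and -2.39), while its second probe set gave -0.59 and did not pass. Mpdz, a scaffold with many PDZ domains, was higher by 1.49 ± 0.26 at PD25, with 1.56 in low-control arrays (adjusted p = 0.061) and 1.45 in high-control arrays alone. Cgnl1, paracingulin, was higher by 2.72 at PD25 and by 2.68 at PD21. Its calls were lost without undivided mouse 3 at PD25 (2.31) or non-bulge mouse 2 at PD21 (2.45), and of its values in low-control and high-control arrays alone (2.14 and 3.01 at PD25, 2.76 and 2.51 at PD21) the first did not pass.

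Marveld2 and Ocln were higher in divided than in undivided cells at PD21, by 1.71 ± 0.29 and 2.21 ± 0.41 (adjusted p = 0.00037 and 0.000892, limma), the direction of Dsg2 in the same arrays. Marveld2 gave 1.56 in low-control and 2.02 in high-control arrays alone (adjusted p = 0.0981 in the high-control arrays), and Ocln 1.75 (adjusted p = 0.0532) and 3.13. Cgnl1 ran the other way, at 5.23, 4.77 and 8.93 in divided cells, against 9.76, 9.94 and 9.92 in undivided cells. The groups did not overlap, but divided mouse 3, the high-control mouse, lay close to the undivided cells. The difference was -3.57 ± 0.70 (adjusted p = 0.00134, limma), with -4.86 in low-control arrays and -0.99 in high-control arrays alone (adjusted p = 0.611 in the high-control arrays). It was -4.88 without divided mouse 3 and -2.80 without divided mouse 2.

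In divided cells at PD25, Marveld2 was lower than in non-bulge cells (-1.43) and lower than in divided cells at PD21 (-1.55). Low-control and high-control arrays alone gave -1.93 and -1.18 against non-bulge cells, neither of which passed, and -1.94 and -1.32 against PD21, of which the first passed. The change between the ages of the divided minus non-bulge difference passed for Marveld2 (-1.62 ± 0.41, adjusted p = 0.0458, limma) and for Mpdz (1.54 ± 0.37, adjusted p = 0.0355, limma). Neither passed in a set of arrays alone (-2.16 and -1.26 for Marveld2, 1.41 and 1.57 for Mpdz). The Marveld2 call was lost without any of 13 of the 18 arrays (-1.70 to -1.43) and under 5 of 14 other settings, and the Mpdz call without any of 7 arrays (1.33 to 1.63) and under 5 of 14 other settings.

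Of 3 gap junction partners and pannexins, 2 were lower in undivided than in non-bulge cells at PD25 and 1 at PD21. Panx1, a channel protein related in shape to connexins, was at 7.71, 8.43 and 8.65 in undivided cells at PD25, against 10.73, 10 and 10.72 in non-bulge cells. Its groups lay far apart (-2.22 ± 0.36, adjusted p = 9.11e-05, limma), and it was lower by -1.96 ± 0.36 at PD21 (adjusted p = 0.000409, limma). It passed in low-control and high-control arrays alone at both ages (-3.02 and -1.82 at PD25, -1.82 and -2.26 at PD21). Tjp1, the scaffold ZO-1, stands in both the tight junction and the gap junction lists and was lower by -0.68 at PD25 (adjusted p = 0.0476, limma). The Tjp1 call was lost without any of 15 of the 18 arrays and in each set of arrays alone (-0.94 and -0.56).

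Of 12 transcription factors known to act on junction genes, 3 were lower in undivided than in non-bulge cells at PD25 and 1 at PD21. Klf5, a factor of proliferating epithelium, was at 8.53, 9.04 and 8.53 in undivided cells at PD25, against 11.80, 10.95 and 11.46 in non-bulge cells. Levels at PD21 were 9.80, 10.04 and 9.72 in undivided cells, against 11.72, 11.92 and 11.08 in non-bulge cells. The groups were separate at both ages, and Klf5 was lower by -2.70 ± 0.28 at PD25 and by -1.72 ± 0.28 at PD21 (adjusted p = 3.39e-07 and 0.000127, limma). Low-control and high-control arrays alone gave -3.27 and -2.42 at PD25 and -1.90 and -1.36 at PD21, where the high-control value did not pass (adjusted p = 0.23).

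Grhl3 and Ovol1, factors of epidermal barrier formation, were lower at PD25 by -1.55 ± 0.44 and -2.06 ± 0.64 (adjusted p = 0.0212 and 0.0389, limma). Ovol1 was at 4.63, 7.97 and 8.41 in undivided cells, against 8.54, 9.33 and 9.31 in non-bulge cells, so undivided mouse 1 stood far below the others. Without that array the Ovol1 difference was -0.87 (adjusted p = 0.343), and it was -2.76 without undivided mouse 3. Its call was also lost without non-bulge mouse 2 or 3 (-1.93 for each), and low-control and high-control arrays alone gave -3.91 and -1.13 (adjusted p = 0.125 in the high-control arrays). The Grhl3 call was lost without non-bulge mouse 1 or 3 or undivided mouse 1 or 2 (-1.59 to -1.15), and low-control and high-control arrays alone gave -2.28 and -1.19 (adjusted p = 0.171 in the high-control arrays).

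In divided cells, Klf5, Grhl3 and Grhl1 were lower at PD25 than at PD21, by -2.31, -1.52 and -1.02. Klf5 gave -2.66 in low-control and -1.80 in high-control arrays alone (adjusted p = 0.08 in the high-control arrays). Grhl3 (-1.57 and -2.01) and Grhl1 (-0.90 and -0.97) passed in neither set alone. The Grhl3 call was lost without divided mouse 2 or 3 of PD21 or divided mouse 1 or 3 of PD25 (-1.62 to -1.17), and the Grhl1 call without divided mouse 1 or 2 of PD21 or 2 or 3 of PD25 (-1.0 to -0.94). The change between the ages of the divided minus non-bulge difference passed for Klf5 (-2.14 ± 0.40, adjusted p = 0.00653, limma), with -2.64 in low-control and -1.93 in high-control arrays alone (adjusted p = 0.508 in the high-control arrays). Of the Snail, Zeb and Twist repressors, Snai2 alone had a tested probe set, and it passed in none of the comparisons.

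**Figure D5:**
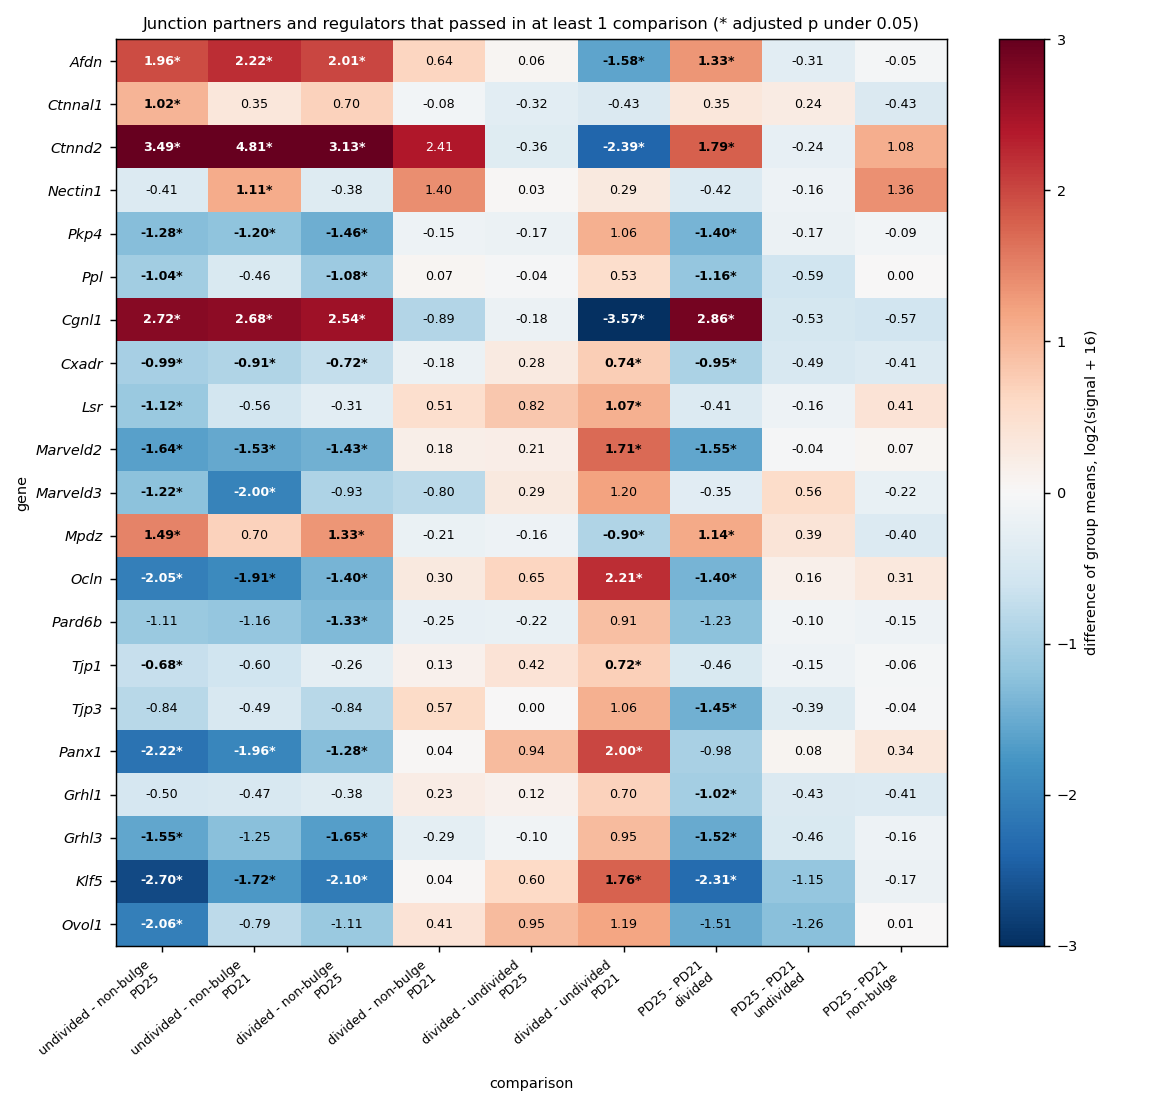
Differences of group means on the log2(signal + 16) scale for the 21 partner and regulator genes (rows) that passed in at least 1 of 9 comparisons (columns, first-named group minus the second), with 3 mice per group and an asterisk at an adjusted p under 0.05. Ctnnd2, Afdn and Cgnl1 are higher and Ocln, Marveld2, Panx1 and Klf5 lower in undivided than in non-bulge cells at both ages.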

How the data were processed

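Per the submitters' processing notes the authors made the deposited probe set intensity values with GCOS; its version is not stated in the sources used. The labels' protocols give amplification of 5 ng of RNA before labelling. The 2% trimmed mean of every array was 500, so the intensity values the authors deposited were already scaled, and no further normalisation was applied. The platform annotation lists 1 symbol for 34945 of 45101 probe sets, several for 932 and none for 9160, and 64 are controls. All but the single-symbol ones were left out. No sample column was left unused (0).

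A probe set was kept when above its array's median in at least 3 of 18 arrays, and each gene was read from its brightest kept probe set on average (11569 genes). Group means of all 18 arrays were fitted on log2(signal + 16) with limma 3.58.1 in R 4.3.3 (lmFit, eBayes with trend). P-values were adjusted by Benjamini and Hochberg's method across all tested genes, separately for each comparison, with 0.05 as the threshold. Errors of differences are standard errors. The fit was tested on simulated data. Arrays give precision only through the number of mice, 3 per group.

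Samples were grouped by age and fraction from the labels, which number the mice. Within an age the same mouse gave all 3 fractions, so the mouse number is a true replicate block. Deviations of same-mouse arrays from their group means correlated at 0.07 to 0.46. PD25 and PD21 mice are different animals, so those comparisons have no such block.

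Every member with a tested probe set could be named. Values of each array are given for members that passed in at least 1 of the 9 comparisons of 2 groups and for a list of textbook skin junction genes. Partner lists are given by counts with up to 4 members each, those with the smallest adjusted p. Members, lists and tests were chosen with earlier results of these data known. Alternatives changed the pseudocount, the filter, the probe set rule, the normalisation, the variance trend, the groups fitted, array weights, the blocks, the set of arrays by control level and each array left out.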

Additional observations from a re-analysis of the deposited data

How the results depend on the processing

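No called difference of a junction gene changed sign under any alternative run. Over 15 such differences and 204 alternative values, 172 stayed past the threshold and 32 did not, and without 1 array 225 of 270 stayed and 45 did not. For partner genes, whose alternatives were added after seeing the data, 124 of 939 values and 147 of 1224 without 1 array did not pass, and 0 changed sign. The cause was not tested. Leaving out 1 array gave 1 to 3 genes for undivided minus non-bulge cells at each age and 1 to 3 for divided minus non-bulge cells at PD25. It gave 1 to 2 for divided minus undivided cells at PD21, 2 to 6 for PD25 minus PD21 divided cells, and 0 to 1 for the age difference of divided minus non-bulge cells (Cdh13). Shares of all tested genes without an array are not given, so these counts have no background beside them.

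With the mouse as a fixed replicate block, the counts were 5 for divided minus non-bulge cells at PD25 (against 2 without it) and 4 for divided minus undivided cells at PD21 (against 1). In that fit 12.3% and 13.3% of all tested genes passed. As a random block (correlation 0.23) they were 5 and 3. The block changed no other count by over 1.5 times, apart from 1 gene (Cdh13) in the age difference of divided minus non-bulge cells with the random block, which array weights also gave (1). A block for the control level gave 4 and 4. Shares of all tested genes are not given for the random block, the control level block and the settings that follow. Those counts therefore have no background beside them. High-control arrays alone called 0 genes for undivided minus non-bulge cells at PD21, 1 for divided minus non-bulge cells at PD25, 0 for divided minus undivided cells at PD21 and 0 for PD25 minus PD21 divided cells, with fewer samples. Low-control arrays alone called 3 for divided minus undivided cells at PD21, as did quantile normalisation (3). Without a variance trend that count was 2, and undivided minus non-bulge cells at PD25 gave 1 (Dsg2). Low signal limits Gjc1 and Cldn23, each above the array median on 12 of the 18 arrays. It also limits Cdh6, Cdh15, Cdh22, Cldn3 and Cldn14, whose group means lay between 5.22 and 6.81.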
